A study of Triticum aestivum and Aegilops tauschii and Triticum carthlicum with 18 samples.

Results

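The transcripts described here were read by probe sets that gave a clear signal in both tetraploid wheat parents and none above the detection level in the diploid parent. A probe set was taken when all 4 arrays of the tetraploids TTR04 and TTH01 stood at a log2 level of 6 or above and both arrays of the diploid TQ27 stood under the detection level of about 4.5. Probe sets are grouped by stem, the start of the name shared by probe sets drawn from one cluster of sequences. Stems that also held a probe set of the opposite pattern were left out, together with 3 stems named in the rule. Of 61115 probe sets that were not controls, 997 met the levels, 968 remained after the stems were left out, and the 200 with the largest distance between the lowest tetraploid array and the highest TQ27 array were kept. These 200 members belong to 178 stems. The parental levels chose the members, so they are given as a description and were not tested.

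The arrays measured leaf transcript levels in 2 newly synthesized allohexaploid wheats and their parents. Allo-AT5 came from TTR04 (Triticum turgidum ssp. durum) and Allo-AT9 from TTH01 (T. turgidum ssp. carthlicum), each crossed with the same Aegilops tauschii line, TQ27, and doubled with colchicine. Both lines were read at selfed generations S4 and S5, from plants that genomic in situ hybridization had shown to carry a whole chromosome set. MPV5 and MPV9 are empirical mid-parent values, mixtures of 2 parts tetraploid RNA (TTR04 or TTH01) and 1 part TQ27 RNA. Each of the 9 groups had 2 arrays, with RNA from pools of 10 seedlings, and plants grew at 22/20 °C (day/night) with 12 h of light. RNA came from the 2nd leaf of seedlings with 3 leaves. Each allohexaploid is 1 line from 1 cross combination, and TQ27 is a parent of both.

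Bread wheat is an allohexaploid: its A and B genomes come from a tetraploid wheat and its D genome from Ae. tauschii. Most genes are therefore present as 3 related copies, called homoeologues, and a newly formed allohexaploid brings copies from both parents under the control of one nucleus. In an RNA mixture a transcript supplied by the tetraploid alone is diluted by the diploid RNA. With 2 parts in 3, its level stands at 66.7% of the tetraploid level, or -0.58 on the log2 scale, if the signal is linear. An allohexaploid reads the same if transcripts of its A and B copies make up the same share of total RNA as in the mixture. The mixture is therefore the baseline for additive expression.

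The labelled tissue was borne out by the brightest probe set of each leaf gene looked at. The brightest probe set of rbcl, the large subunit of Rubisco, read 14.1 or above on the 18 arrays, and those of OEE1, OEE2 and petC, which serve photosynthesis in the chloroplast, read between 11.8 and 13.4. Most of the 28 rbcl probe sets read under the detection level on most or all arrays. The other petC probe set read 1.94 to 2.67. Array medians over the whole table lay between 4.00 and 4.11, as the deposited values had been normalized together. The BioC hybridization control, which is added to each sample, fell into a band of 8.77 to 9.66 on 8 arrays and of 5.67 to 7.28 on 10 arrays. Both Allo-AT5 S5 arrays lay in the lower band, and its arrays were much closer to each other (SD of the difference over members 0.20) than those of the other 8 groups (0.57 to 1.04). Each of these 8 groups had 1 array in either band, with replicate 1 in the upper one except in TQ27. The main fit held no term for the band, which was used as a block in an alternative.

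**Figure D1:**
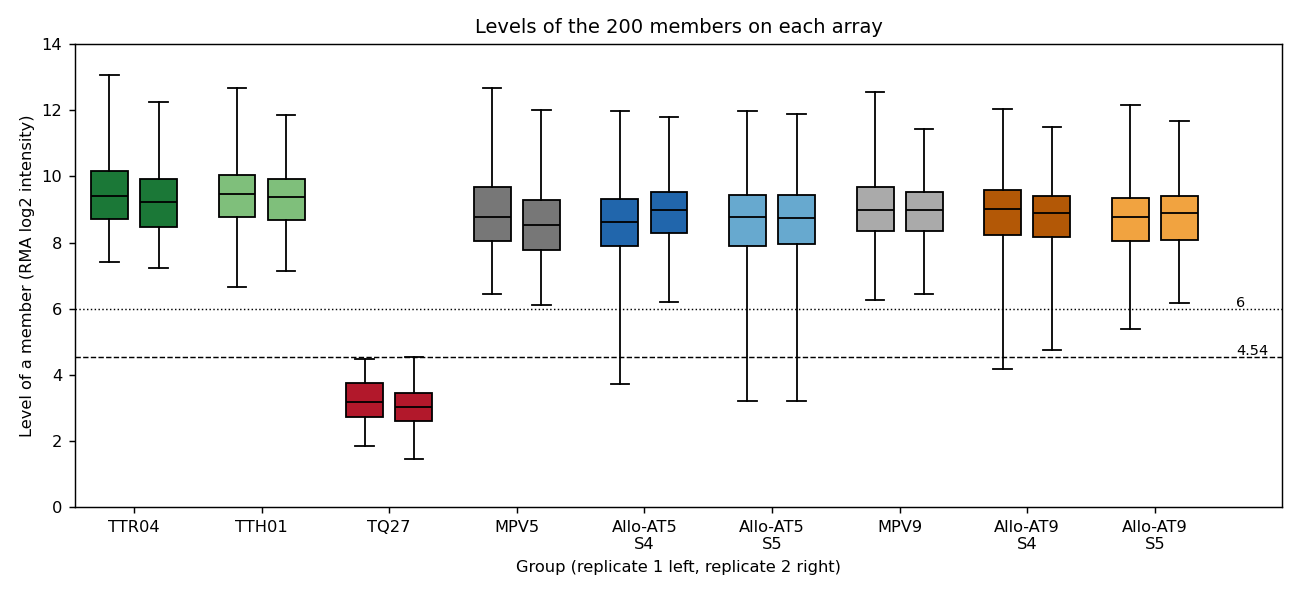
Levels of the 200 members on each of the 18 arrays as RMA log2 intensity, with the median, the quartiles as a box and whiskers to the lowest and highest member. TQ27 lies under the detection level of about 4.5 (dashed line) by the choice of members, and every mixture and allohexaploid array has its median between 8.53 and 9.02.

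The members spanned a wide range of levels in the tetraploids. Their group means ran from 7.35 to 11.9 in TTR04, with a median of 9.41, and from 6.89 to 12.3 in TTH01, with a median of 9.47. In TQ27 they ran from 1.67 to 4.30, with a median of 3.13. The lowest tetraploid array exceeded the highest TQ27 array by 7.24 for Ta.1519.2.S1_at, the widest margin, and by 4.67 for Ta.9761.1.S1_at, the narrowest. Just inside the limit stood Ta.17705.1.A1_at and Ta.3911.2.S1_x_at, both at 4.67. Just outside stood Ta.6552.2.S1_a_at (4.67), Ta.482.1.A1_a_at (4.66) and TaAffx.71229.1.A1_at (4.66), so the limit of 200 does not mark a gap in the data. When TQ27 had to be under 4, 160 of the 200 members were chosen again.

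What the members encode is largely not annotated in the tables used here. Only 3 members carry a gene symbol, all of them locus numbers without a description, and none is among the 87 probe sets named in the copy of the study's supplementary tables used here, which does not name every probe set of the study's lists. No grouping by function was made. Ta.27765.3.S1_at reads LOC606340 on chromosome 7B, Ta.1251.1.S1_at reads LOC543068 on 2A and Ta.24806.2.S1_at reads LOC606369 on 1A (chromosomes from the IWGSC CS RefSeq v2.1 annotation). Among all 968 probe sets that met the levels, 19 had an annotated gene: 7 on the A genome, 10 on the B genome and 2 on the D genome. The reverse set, detected in TQ27 and in neither tetraploid, had 12 annotated probe sets, of which 9 lay on the D genome, 1 on A and 2 on B. Over all 842 expressed probe sets with a placed gene, 37.1% lay on the D genome. Probe sets read in the tetraploids only thus seldom had their annotated gene on the D genome and those read in TQ27 only mostly did, each over few genes. The placement is that of the annotated gene and not of the transcript read, as the tetraploids carry no D genome and TQ27 no A or B genome.

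A signal under the detection level in TQ27 belongs to the probe set and not to the gene as a whole. Probe sets of the same stem often did detect TQ27: 256 other probe sets shared a stem with a member, in 101 stems, and 142 of them, in 67 stems, were at the detection level or above on both TQ27 arrays. These stems hold 78 of the 200 members. Another 40 of the 256 were at the detection level or above on all 4 tetraploid arrays and under it on both TQ27 arrays. This is looser than the level of 6 asked of the members. A TQ27 transcript that is absent and one that differs in sequence from the probes cannot be told apart here. Of the members, 28 of 200 were of the TaAffx kind, against 20.4% of all 12109 probe sets at 6 or above on the 4 tetraploid arrays. Probe sets whose name ends in _x_at, some probes of which can also match other transcripts, made up 16.5% of the members and 19.3% of those probe sets.

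Nearly every member was detected in the mixtures and in both allohexaploid lines. In MPV5, MPV9 and Allo-AT9 S5 all 200 members were detected on both arrays, and in Allo-AT5 S4, Allo-AT5 S5 and Allo-AT9 S4 it was 199 of 200. At the stricter level of 6 the counts were 200 in MPV5, 200 in MPV9, 198 in Allo-AT5 S4, 199 in Allo-AT5 S5, 198 in Allo-AT9 S4 and 199 in Allo-AT9 S5. In both S4 groups the member short of full detection was Ta.28917.1.S1_x_at, with 1 array under the level in each. A single member, Ta.20930.1.S1_at in Allo-AT5 S5, was under the detection level on both arrays of an allohexaploid group. Of all 968 probe sets that met the levels, 2 were under it on both arrays of Allo-AT5 S5 and none on both arrays of the other allohexaploid groups. The leaves are bulk samples, so a lower level can mean fewer cells with the transcript or less of it per cell, which cannot be told apart.

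The members stood below their tetraploid parent by close to the diluted amount. The parental arrays also chose the members, so these distances are a description. In MPV5 the median member was at -0.66 against TTR04, or 63.5% of the TTR04 level, and in MPV9 at -0.40 against TTH01, or 75.8%. Allo-AT5 stood at -0.55 (68.4% of TTR04) in S4 and at -0.61 (65.5%) in S5. Allo-AT9 stood at -0.50 (70.5% of TTH01) in S4 and at -0.62 (65.2%) in S5. All 4 allohexaploid groups thus lay between the MPV5 and MPV9 mixtures, on either side of -0.58. The mixtures should hold the same share of tetraploid RNA, yet their medians differed from each other by more than any allohexaploid group differed from -0.58.

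**Figure D2:**
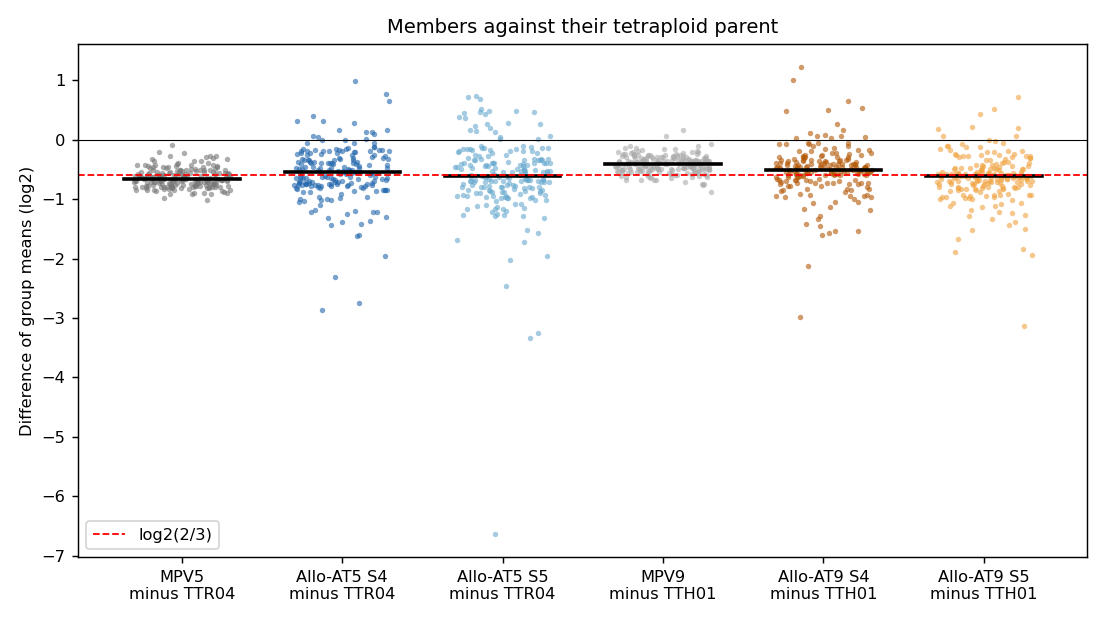
Difference between each mixture or allohexaploid group and its tetraploid parent for the 200 members (points, log2 difference of group means), with the median as a black bar and the value of a dilution to 2 parts in 3 as a red dashed line. The medians run from -0.66 in MPV5 to -0.40 in MPV9, and the spread over members is several times wider in the allohexaploids than in the mixtures.

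The allohexaploids differed from the mixtures in how widely the members scattered. The SD over members of the distance to the tetraploid parent was 0.16 in MPV5 and 0.15 in MPV9. In the allohexaploids it was 0.49 (Allo-AT5 S4), 0.71 (Allo-AT5 S5), 0.44 (Allo-AT9 S4) and 0.42 (Allo-AT9 S5). More than 2-fold below the tetraploid parent stood 23 members in Allo-AT5 S4, 30 in Allo-AT5 S5, 16 in Allo-AT9 S4 and 23 in Allo-AT9 S5, against 1 in MPV5 and 0 in MPV9. Above the tetraploid parent stood 16, 24, 15 and 8 members in the same order of allohexaploid groups, against 0 in MPV5 and 2 in MPV9. The same spreads and counts over all detected probe sets were not made, so nothing particular to the members is read from them.

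This narrow scatter of the mixtures has to be read with how closely their arrays followed those of the parent. For each member, the difference between the replicate arrays of MPV5 followed that of TTR04 with r = 0.97 over 200 members, and MPV9 followed TTH01 with r = 0.93. Members read on 1 array share that array, so these correlations describe pairs of arrays and carry no p. The SD over members between a mixture array and the tetraploid array of the same number was 0.16 to 0.23, and between arrays of different numbers 0.60 to 1.02. Whether the mixtures were made from the very extracts hybridized as parents is not given in the sources used here. The mixture values were therefore not fully separate from the parental arrays that chose the members. Between a mixture and its allohexaploid the match was weaker: r was 0.06 for Allo-AT5 S4, -0.31 for Allo-AT5 S5, 0.41 for Allo-AT9 S4 and 0.42 for Allo-AT9 S5.

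**Figure D3:**
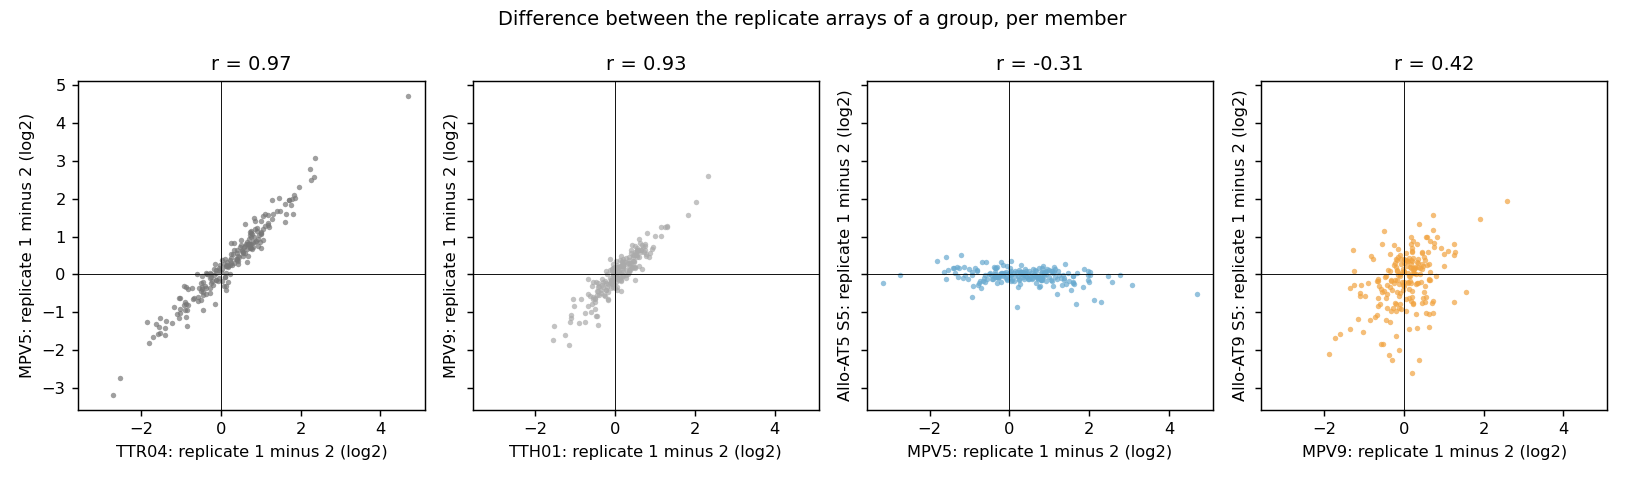
Replicate 1 minus replicate 2 (log2) of each of the 200 members, for MPV5 against TTR04, MPV9 against TTH01, Allo-AT5 S5 against MPV5 and Allo-AT9 S5 against MPV9. The mixtures follow their tetraploid parent (r = 0.97 and 0.93), and 65 of 200 members differ over 2-fold between the MPV5 arrays while none does between the Allo-AT5 S5 arrays.

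The comparison of an allohexaploid with its mixture asks whether a transcript departed from additive expression. A member was called when limma, fitted to all 18 arrays and adjusted over all 61115 probe sets (Benjamini-Hochberg), gave an adjusted p under 0.05. Both arrays of at least 1 group compared also had to be at the detection level or above. Across all probe sets detected in at least 1 group compared, such calls were rare, at 0% in Allo-AT5 S4, 0.0115% in Allo-AT5 S5, 0.191% in Allo-AT9 S4 and 0.179% in Allo-AT9 S5. Of the 200 members, 1 was called, Ta.20930.1.S1_at in Allo-AT5 S5. None was called in Allo-AT5 S4, Allo-AT9 S4 or Allo-AT9 S5. At an unadjusted p under 0.05 the member counts there were 11, 6 and 11, against 4.43%, 2.51% and 3.09% of all detected probe sets, that is 5.5%, 3.0% and 5.5% of the members. With 2 arrays a group, the median SE of a difference over the members was 0.39 on the log2 scale.

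The departures from the mixtures were mostly small. Over the members the median difference was 0.11 in Allo-AT5 S4, 0.08 in Allo-AT5 S5, -0.09 in Allo-AT9 S4 and -0.18 in Allo-AT9 S5. Over all detected probe sets the medians were 0.04, 0.00, 0.02 and 0.03. The Allo-AT5 medians changed sign when single arrays were left out, while the Allo-AT9 medians stayed below 0. In Allo-AT9 S5, 153 members were lower than MPV9 and 47 higher, and in Allo-AT9 S4 128 were lower. In the other line 125 members were higher than MPV5 in S4 and 113 in S5. The S4 and S5 comparisons of a line share the mixture arrays, so the same direction in both is partly the mixture's own.

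Differences of over 2-fold from the mixture were found for 10 members in Allo-AT5 S4, 18 in Allo-AT5 S5, 10 in Allo-AT9 S4 and 9 in Allo-AT9 S5. These are 5.0%, 9.0%, 5.0% and 4.5% of the members, against 3.76%, 5.44%, 2.47% and 2.43% of all detected probe sets. In all 4 groups, 171 of the 200 members (85.5%) stayed within 2-fold of their mixture. The 10 members with the widest parental margin, which are Ta.1519.2.S1_at, Ta.27765.3.S1_at, TaAffx.60882.1.S1_at, Ta.344.1.S1_x_at, Ta.27148.1.S1_at, Ta.15228.1.S1_at, Ta.28258.1.S1_at, Ta.2044.2.S1_at, Ta.659.5.S1_at and Ta.913.1.S1_x_at, were all among them. Their differences from the mixtures ran from -0.84 to 0.47.

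Ta.1519.2.S1_at is described as the member with the widest parental margin. It read 11.3 and 10.6 in TTR04, 11.1 and 11.1 in TTH01 and 3.38 and 2.22 in TQ27. In the mixtures it read 10.7 and 9.95 (MPV5) and 10.9 and 10.9 (MPV9). In the allohexaploids it read 10.0 and 10.4 (Allo-AT5 S4), 9.96 and 9.92 (Allo-AT5 S5), 10.8 and 10.2 (Allo-AT9 S4) and 10.3 and 10.5 (Allo-AT9 S5). All 8 allohexaploid arrays thus lay far above TQ27 and under the highest tetraploid array. Its group means were below the mixture in all 4 allohexaploid groups, at differences of -0.16 to -0.47, and none was called. Of the 200 members, 36 were below the mixture in all 4 groups and 17 were above it in all 4. The S4 and S5 groups of a line share the mixture arrays, and the same count over all detected probe sets was not made, so nothing is read from these counts.

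The member that departed most was Ta.20930.1.S1_at, which was not detected in Allo-AT5 S5. It read 9.66 and 10.0 in TTR04, 10.1 and 11.2 in TTH01, and 3.71 and 3.03 in TQ27. The mixtures held it at 8.84 and 9.35 (MPV5) and at 9.67 and 10.8 (MPV9). In Allo-AT5 it read 6.84 and 7.12 in S4 and 3.22 and 3.20 in S5. The S5 arrays therefore sat at the TQ27 level, and the S4 arrays lay between TQ27 and the mixture without overlap with either. In Allo-AT9 it read 9.23 and 9.96 in S4, partly within the MPV9 range, and 6.92 and 8.10 in S5, below both MPV9 arrays.

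In Allo-AT5 S5, Ta.20930.1.S1_at was lower than in MPV5 by a fitted log2 difference of -5.88 (SE 0.49, n = 2 against 2, adjusted p = 0.00318 from limma). Because both S5 arrays were under the detection level, the difference is a bound, at least 4.56 on the log2 scale or at least 23.5-fold lower. It was one of 3 probe sets called in this comparison over the whole array. The call was lost when the fit held only the 4 arrays compared (adjusted p = 0.515) and when either S5 array was left out (adjusted p = 0.0713 and 0.101), while the difference itself stayed at -5.89 and -5.87. With the BioC band as a block the difference was -6.26 and the call held. The other groups gave -2.12 for Allo-AT5 S4 (adjusted p = 0.941), -0.64 for Allo-AT9 S4 and -2.73 for Allo-AT9 S5 (adjusted p = 0.132), none of them called. With the BioC band as a block, Allo-AT5 S4 (adjusted p = 0.0348) and Allo-AT9 S5 (0.000543) were called too. The array holds no other probe set of this stem, and the probe set has no gene annotation in the tables used here, so the reading rests on 1 probe set.

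Between generations, the S5 minus S4 difference of Ta.20930.1.S1_at was -3.77 in Allo-AT5 (adjusted p = 0.124, at least 5.41-fold lower). It was -2.08 for the Allo-AT9 generations, and neither passed the test. With the BioC band as a block the Allo-AT5 difference was -4.14 and was called (adjusted p = 9.92e-05), while that of Allo-AT9 was not (adjusted p = 0.114). Between the lines, Allo-AT5 minus Allo-AT9 was -2.62 in S4 (SE 0.49, adjusted p = 0.0285 from limma) and -4.30 in S5 (SE 0.49, adjusted p = 0.000673, at least 7.84-fold lower). The S4 call was lost without any single one of the 4 arrays (adjusted p of 0.0831 to 0.24), and the S5 call held without each of them (0.00179 to 0.0131). The tetraploid parents differed in the same direction, at -0.79 for TTR04 minus TTH01. The test of whether the lines departed from their own mixtures by unequal amounts gave -1.47 in S4 and -3.16 in S5 (adjusted p = 0.819), neither of which was called. With the BioC band as a block the S5 value was -3.53 and was called (adjusted p = 0.00341).

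**Figure D4:**
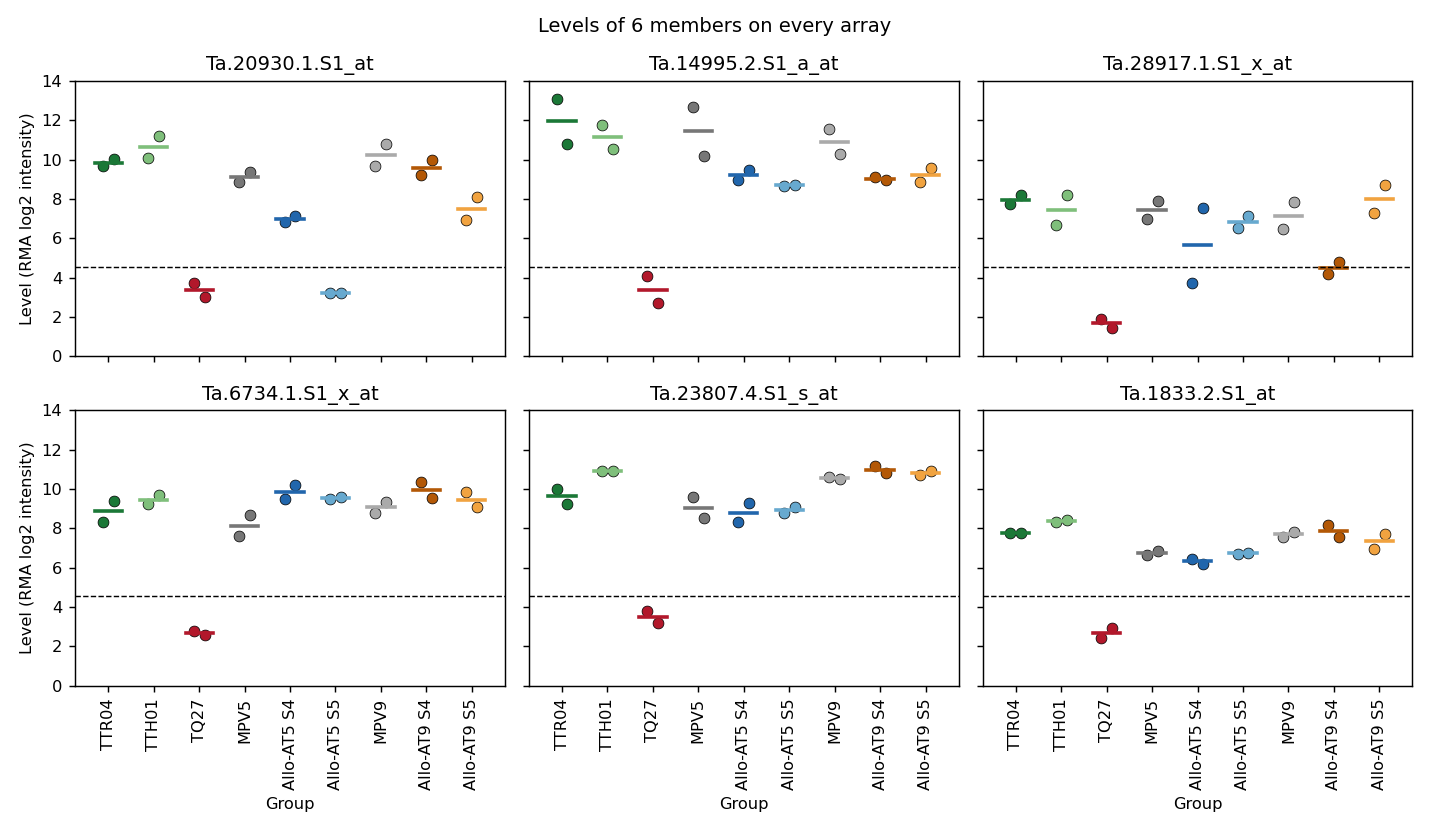
Levels of 6 members on every array (points; bars are group means; RMA log2 intensity), with the detection level as a dashed line. Ta.20930.1.S1_at falls to the TQ27 level in Allo-AT5 S5, Ta.14995.2.S1_a_at lies lower on all 8 allohexaploid arrays than on the 4 mixture arrays, and Ta.23807.4.S1_s_at is lower in Allo-AT5 and MPV5 than in Allo-AT9 and MPV9.

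Ta.14995.2.S1_a_at was one of the 3 members furthest below the mixture in each of the 4 allohexaploid groups. It read 13.1 and 10.8 in TTR04, 11.8 and 10.5 in TTH01, and 4.07 and 2.70 in TQ27. The mixtures read 12.7 and 10.2 (MPV5) and 11.5 and 10.3 (MPV9). The allohexaploids read 8.95 and 9.46 (Allo-AT5 S4), 8.66 and 8.72 (Allo-AT5 S5), 9.09 and 8.97 (Allo-AT9 S4) and 8.85 and 9.57 (Allo-AT9 S5). All 8 allohexaploid arrays lay below all 4 mixture arrays, and the arrays of TTR04 and of MPV5 were over 2 log2 units apart within the group.

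The differences of Ta.14995.2.S1_a_at from the mixtures were -2.23, -2.75, -1.88 and -1.71 in the order Allo-AT5 S4, Allo-AT5 S5, Allo-AT9 S4 and Allo-AT9 S5, with an SE of 0.85, and none was called. Without single arrays the Allo-AT5 S4 value ran from -3.47 to -0.99. Another probe set drawn from the same sequence, Ta.14995.2.S1_x_at, gave -2.24, -2.41, -1.72 and -1.54. The study's supplementary tables annotate that probe set with xyloglucan:xyloglucosyl transferase activity, that of enzymes which cut and rejoin xyloglucan chains in the growing cell wall. The study's lists with such terms hold probe sets showing parental dominance or non-additive expression in both lines and both generations. The study thus reported altered expression for that probe set. The study's cut-off was P under 0.05 by limma, while the calls here used an adjusted p. Ta.14995.2.S1_x_at read 5.38 in TQ27, so it was not chosen. A further probe set of the stem, Ta.14995.1.S1_x_at, read 9.30 in TQ27 and showed smaller differences, from -1.64 to -0.63. Ta.21591.1.A1_s_at was the other member more than 2-fold below the mixture in all 4 groups (-1.31, -1.83, -1.0 and -1.16). Its 8 allohexaploid arrays read 6.51 to 7.88 and its 4 mixture arrays 7.85 to 9.48, so the ranges overlap at their ends.

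Ta.28917.1.S1_x_at was lowest in generation S4. It read 7.73 and 8.19 in TTR04, 6.68 and 8.22 in TTH01, 6.96 and 7.90 in MPV5 and 6.47 and 7.82 in MPV9. In S4 it read 3.73 and 7.55 in Allo-AT5, where the arrays disagree, and 4.18 and 4.77 in Allo-AT9, where both are low. In S5 it read 6.54 and 7.15 for Allo-AT5 and 7.26 and 8.69 for Allo-AT9, overlapping the mixture of each line. Allo-AT9 thus stood at -2.67 against MPV9 in S4 and at 0.83 in S5, with an S5 minus S4 difference of 3.5, the widest of any member in that line. None of these was called, with an SE of 0.98. Ta.28917.1.S1_at of the same stem gave -2.17 in S4 and 1.13 in S5 for Allo-AT9. In Allo-AT5 S4 the low value of Ta.28917.1.S1_x_at rested on 1 array: without replicate 1 the difference from MPV5 was 0.12 in place of -1.79.

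The members furthest above the mixtures also stood above the tetraploid parent of their own line in group means. The distance reached 1.22 on the log2 scale, for Ta.11022.2.S1_at in Allo-AT9 S4 against TTH01. Ta.6734.1.S1_x_at read 9.50 and 10.2 in Allo-AT5 S4 and 9.48 and 9.60 in S5, against 7.62 and 8.67 in MPV5 and 8.30 and 9.42 in TTR04. Its Allo-AT5 arrays lay above every MPV5 and TTR04 array. The differences from MPV5 were 1.70 (S4) and 1.4 (S5) and those from MPV9, in the other line, were 0.90 (S4) and 0.39 (S5), with an SE of 0.46 and no call. The same stem's Ta.6734.1.S1_a_at, which is not among the 200, read 9.60 in TTR04 and 3.83 in TQ27 and gave 1.46, 1.25, 0.71 and 0.18 in the same order.

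Other high members showed less regular patterns. Ta.787.1.S1_x_at stood at 1.55 and 1.27 above MPV5 in Allo-AT5 S4 and S5, and at 0.45 and -0.12 against MPV9 in Allo-AT9. Ta.2884.2.S1_a_at stood above the mixture in all 4 groups, at 0.43, 1.31, 1.07 and 1.31. Ta.2884.3.S1_x_at of the same stem was detected in TQ27 (7.55) and gave 0.32, 1.09, 1.07 and 1.10. The Ta.11022 stem holds 3 members, and Ta.11022.2.S1_at and Ta.11022.2.S1_x_at stood at 1.59 and 1.51 above MPV9 in Allo-AT9 S4 and at -0.03 or above in the other groups. None of these was called. Ta.21419.1.S1_at pointed opposite ways, at 1.15 in Allo-AT5 S4 and -1.32 in Allo-AT9 S4, but its Allo-AT5 value was -0.44 without MPV5 replicate 1 and 2.74 without replicate 2.

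Ta.1337.2.S1_x_at stood at -1.39 (S4) and -1.44 (S5) against MPV9, where MPV9 read 11.4 and 10.7 and the Allo-AT9 arrays 9.07 to 10.2, without overlap. Against MPV5 the other line stood at 0.37 and 1.01. Ta.1337.1.S1_x_at of the same stem was detected in TQ27 (9.20) and gave -1.15 and -1.18 in Allo-AT9, near the values of the member. TaAffx.3462.1.S1_at stood at -1.66 in Allo-AT9 S5, and Ta.883.1.S1_at at 0.77 there. No call was made for any of them.

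The annotated members stayed within 2-fold of their mixtures, 1 of them on opposite sides in the 2 lines. Ta.27765.3.S1_at (LOC606340, 7B) ranged from -0.18 to 0.12 over the 4 comparisons. Ta.1251.1.S1_at (LOC543068, 2A) ranged from -0.17 to 0.11. Ta.24806.2.S1_at (LOC606369, 1A) stood at 0.52 and 0.54 against MPV5 and at -0.57 and -0.16 against MPV9. Each of these differences from the mixtures lay within 2-fold, and none was called. Between the lines Ta.1251.1.S1_at stood at -1.19 in S4 and -0.88 in S5, with -1.16 for MPV5 minus MPV9 and -0.97 for TTR04 minus TTH01. The main fit did not call it there. With the BioC band as a block it was called between the lines in S4 and between the mixtures. Adjustment over expressed probe sets and the replicate block each called it between the lines in S4.

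Members of the same stem mostly lay close together in their differences from the mixture, but less so in a few stems between the lines. Of the 178 stems, 159 hold 1 member, 17 hold 2, Ta.11022 holds 3 and Ta.3911 holds 4. Within the 19 stems with over 1 member the differences from the mixture lay a median of 0.16 (Allo-AT5 S4), 0.10 (Allo-AT5 S5), 0.07 (Allo-AT9 S4) and 0.11 (Allo-AT9 S5) apart. The widest distance within a stem was 0.71, in Ta.23807 for Allo-AT5 S4. Between the lines the median distance within a stem was 0.14 in S4 and 0.18 in S5, and the widest, again in Ta.23807, was 2.20 and 1.88. A distance over 1 was found in 1 stem in S4 and in 2 stems in S5. The other stem in S5 was Ta.11022, whose members stood at 0.16, 1.49 and 1.57 between the lines. Ta.1120.1.S1_at and Ta.1120.1.S1_x_at, at -1.59 and -1.5 in Allo-AT5 S5, count as 2 of the 18 members over 2-fold there.

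From S4 to S5 no member passed the test in either line, and no probe set of the whole array did either (0% of those detected in both comparisons). With the BioC band as a block, 1 member was called for Allo-AT5, Ta.20930.1.S1_at. At an unadjusted p under 0.05, 1 member passed for Allo-AT5 and 5 for Allo-AT9, against 1.71% and 1.43% of all detected probe sets. The median member stood at -0.07 for Allo-AT5 and at -0.13 for Allo-AT9. Within 0.5 on the log2 scale lay 82.5% and 81.5% of the members, against 84.3% and 88.9% of all detected probe sets.

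Few members separated the lines from each other. Between Allo-AT5 and Allo-AT9, 3 members were called in S4, where 1.63% of all detected probe sets were, and 1 in S5, where 1.49% were. At an unadjusted p under 0.05 the member counts were 19 (9.5%) and 20 (10.0%), against 9.19% and 6.86% of all detected probe sets. All called members were lower in Allo-AT5, and each also stood lower in TTR04 than in TTH01 and in MPV5 than in MPV9. Ta.20930.1.S1_at was called in both generations. The others, called in S4, were Ta.23807.4.S1_s_at (-2.20, SE 0.39, adjusted p = 0.0194 from limma) and Ta.1833.2.S1_at (-1.52, SE 0.27, adjusted p = 0.0191).

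Ta.23807.4.S1_s_at read 8.32 and 9.27 in Allo-AT5 S4 and 11.2 and 10.8 in Allo-AT9 S4. The parents and mixtures had the same order, with 10.0 and 9.26 in TTR04, 10.9 and 10.9 in TTH01, 9.59 and 8.51 in MPV5 and 10.6 and 10.5 in MPV9. In S5 it read 8.78 and 9.07 for Allo-AT5 against 10.7 and 10.9 for Allo-AT9 (-1.89, adjusted p = 0.0546). In each generation the lines did not overlap. Against its own mixture neither line differed by more than 0.44. The other member of this stem, Ta.23807.7.S1_at, had nearly the same level in both lines, at 0.01 in S4 and -0.02 in S5. Ta.23807.4.S1_x_at, drawn from the same sequence as the called member but detected in TQ27 (7.38), gave -0.89 in S4. The same stem holds Ta.23807.6.A1_at, which had nearly the reverse parental pattern, at 12.7 in TQ27, 5.03 in TTH01 and 3.12 in TTR04, and which read 12.4 to 12.8 in every mixture and allohexaploid group.

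Ta.1833.2.S1_at read 6.44 and 6.21 in Allo-AT5 S4 and 8.15 and 7.54 in Allo-AT9 S4. TTR04 read 7.78 and 7.74 and TTH01 8.32 and 8.42, so the tetraploids differed in the same direction but by less. In S5 the lines read 6.70 and 6.74 against 6.97 and 7.72, closer to each other, without overlap and not called (-0.62). The S4 calls depended on single arrays: without Allo-AT5 S4 replicate 1 or without Allo-AT9 S4 replicate 1 no member was called, without Allo-AT5 S4 replicate 2 only Ta.23807.4.S1_s_at of the 3 was called, beside TaAffx.105083.1.S1_at, which was not called with all arrays, and without Allo-AT9 S4 replicate 2 only Ta.1833.2.S1_at was. With only the arrays of the groups compared, 1 member was called in S4 and it was another one, Ta.21419.1.S1_at.

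The difference between TTR04 and TTH01 is described next to the other differences over all 200 members. The tetraploid arrays chose the members and the mixture arrays followed them, so this is no test. The parental difference correlated with the difference between the mixtures at r = 0.97, with that between the lines at r = 0.52 in S4 and at r = 0.38 in S5 (n = 200 members each; members share arrays, so no p is given). Without Ta.20930.1.S1_at the last was 0.39. Over all 12109 probe sets at 6 or above on the 4 tetraploid arrays the same correlations were 0.87, 0.43 and 0.33, so nothing particular to the members is read from them. Of 12 members more than 2-fold apart between the tetraploids, 12 had the same sign between the mixtures and 10 between the lines in each generation. The mixtures had no called member, against 1.39% of all detected probe sets; at an unadjusted p under 0.05, 34 members passed (17.0%, against 9.56% of all detected probe sets).

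**Figure D5:**
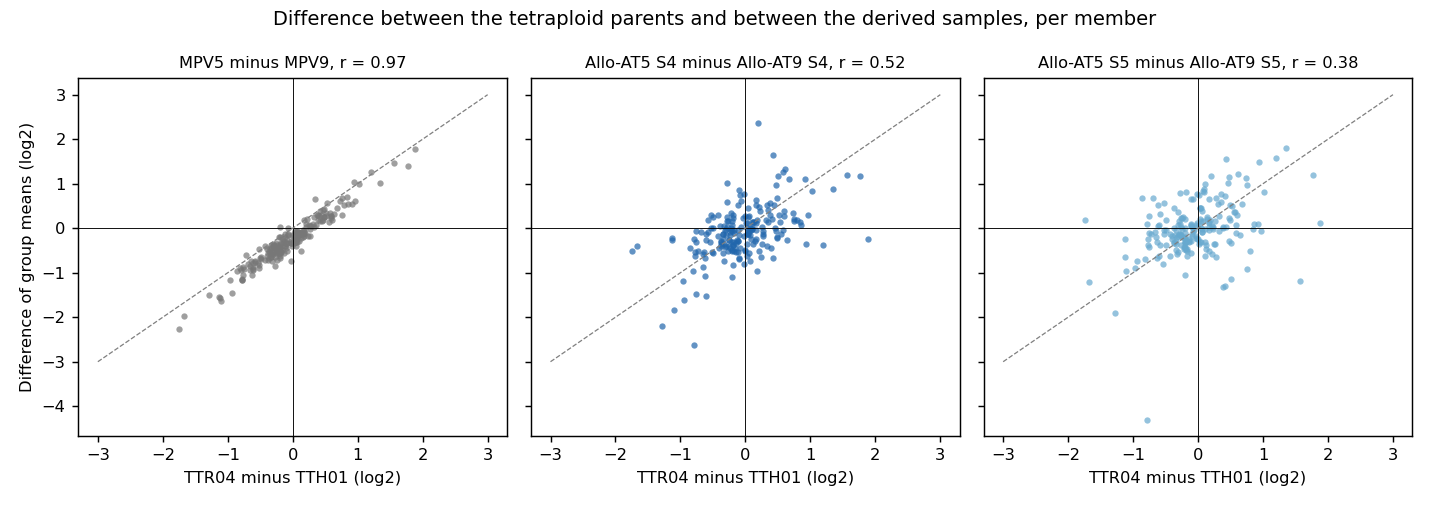
Difference between TTR04 and TTH01 (horizontal, log2) against the difference between MPV5 and MPV9, Allo-AT5 S4 and Allo-AT9 S4, and Allo-AT5 S5 and Allo-AT9 S5 (vertical, log2) for the 200 members, with equality as a dashed line. The mixtures lie along the line (r = 0.97) and the allohexaploids scatter around it (r = 0.52 and 0.38), with Ta.20930.1.S1_at lowest at -4.30 in S5.

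Whether the departure from the mixture differed between the lines was tested directly. No member was called in S4, where 0.0782% of all detected probe sets were, or in S5, where 0.0661% were. With the BioC band as a block, Ta.20930.1.S1_at was called in S5. At an unadjusted p under 0.05 the member counts were 5 and 7, against 3.18% and 2.56% of all detected probe sets.

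The reverse set gave the counterpart of these dilutions. The 200 probe sets with the largest margin among those detected in TQ27 and in neither tetraploid are diluted to 33.3% in a mixture, or -1.58 on the log2 scale. They stood at -1.31 against TQ27 in MPV5 (40.4%) and at -1.71 in MPV9 (30.6%), and at -1.64 to -1.74 in the allohexaploids. The tetraploid-only members thus read lower and the TQ27-only probe sets higher in MPV5 than in MPV9. Both lines lay nearer to the MPV9 value for the TQ27-only probe sets. The reverse set was detected less completely: 192 to 198 of its 200 probe sets were detected on both arrays of an allohexaploid group, and 1, 1, 5 and 6 were under the level on both arrays of Allo-AT5 S4, Allo-AT5 S5, Allo-AT9 S4 and Allo-AT9 S5. These counts were not tested against those of the members.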

How the data were processed

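Leaf RNA of 9 groups with 2 arrays each was hybridized to the Affymetrix wheat genome array. The deposited values are log2 expression values that the authors made from the array images by RMA (robust multi-array average: background correction, quantile normalization and a summary per probe set) with limma. The submitters' notes also name MAS5 and GCOS, whose detection flags were not used here. One table held 61290 probe sets, and all its sample columns were used. Groups and replicates came from the sample titles, mixture and cross details from the study's methods. The members and lists were chosen with earlier results of these data known.

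Control probe sets (111 AFFX, 64 RPTR) were left out. A group counted as expressing a probe set when both arrays reached 4.54, a working level in place of the flags; 29667 probe sets passed in at least 1 group. Group means were fitted with limma 3.58.1 (lmFit, eBayes; R 4.3.3) on the deposited values, with 9 residual and 2.99 prior degrees of freedom, Benjamini-Hochberg over 61115 probe sets, two-sided. A difference against a group under 4.54 on both arrays is a bound, the bright group's mean minus 4.54. Detection, parental distances and correlations over members used Python 3.11.15 (pandas 2.3.3, numpy 2.4.6). The fit was tested on simulated data. Array intensities carry no count of molecules, and 2 arrays a group limit the precision. The p-values rest on the spread between the 2 arrays of a group, pooled per probe set over the 9 groups. The mixture arrays are not shown to come from pools separate from the parental ones. The Allo-AT5 S5 arrays lay closer together (SD over members 0.20) than those of the other groups (0.57 to 1.04), so the pooled spread need not hold for each group.

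Stems Ta.1282, Ta.2434 and TaAffx.56524 were left out. Members named are the 10 with the widest margin, the 3 on either side of the limit, those with a gene symbol, those among the 87 probe sets named in the copy of the study's supplementary tables used here (none), those called, those not detected in an allohexaploid group or mixture and, where none was called against a mixture, the 3 lowest and 3 highest. Ta.21591.1.A1_s_at, Ta.1120.1.S1_at, TaAffx.105083.1.S1_at and other probe sets of a named stem were added after their values were seen. Alternatives were other arrays in the fit, cyclic loess, filters, adjustment, blocks, prior, leaving out single arrays, and other choices of members. Sequences of the probe sets were not used here. Whether same-numbered arrays are pairs was checked by correlating their deviations over expressed probe sets. This gave -0.02 and -0.15 for Allo-AT5 S4 and S5 with MPV5, and 0.58 and 0.52 for Allo-AT9 S4 and S5 with MPV9. MPV5 with TTR04 gave 0.85 and MPV9 with TTH01 gave 0.74. As same-numbered arrays moved together in some groups and not in others, the main fit took no pairs. Blocks by replicate number and by BioC band were fitted as alternatives.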

Additional observations from a re-analysis of the deposited data

How the results depend on the processing

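The call of Ta.20930.1.S1_at in Allo-AT5 S5 against MPV5 held with no filter, adjustment over expressed probe sets, cyclic loess, either block and the trended prior. The count was 0 with only the groups compared and 0 to 1 with single arrays left out. At an unadjusted p under 0.05 the member counts were 11, 10 (5.0%, against 3.54% of all detected probe sets), 6 and 11 for Allo-AT5 S4, Allo-AT5 S5, Allo-AT9 S4 and Allo-AT9 S5 against their mixtures, 1 and 5 between generations, 19 and 20 between lines, 34 between mixtures, and 5 and 7 for the difference of differences. With the replicate block 1 member was called in Allo-AT9 S5 against MPV9 (Ta.20930.1.S1_at, adjusted p = 0.0246), 1 in Allo-AT5 S5 against S4 (the same probe set, adjusted p = 0.0243), and 4 in place of 3 between the lines in S4; it changed no other count. With the numbers of Allo-AT5 S5 crossed, chosen after seeing the data, the count against MPV5 stayed 1. Blocking on the BioC band, 1 was called in Allo-AT5 S4 against MPV5, 1 in Allo-AT9 S5 against MPV9, 1 in Allo-AT5 S5 against S4, 2 between the mixtures and 1 in the difference of differences in S5. The band block and adjustment over expressed probe sets each gave 4 in place of 3 between the lines in S4. The Allo-AT5 S5 arrays lie in 1 band.

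Between the lines, the S4 count was 1 with only the groups compared and 0 to 2 without single arrays; the S5 count was 2 with only the groups compared, 2 with cyclic loess, 2 with adjustment over expressed probe sets and 1 to 2 without single arrays. Leaving out single arrays moved the median over members to between -0.09 and 0.30 in Allo-AT5 S4, -0.14 and 0.22 in S5 of that line, -0.15 and -0.02 in Allo-AT9 S4, and -0.25 and -0.17 in Allo-AT9 S5; a lone array was assumed to vary like the other groups. Of named members, Ta.28917.1.S1_x_at in Allo-AT5 S4 turned from -1.79 to 0.12 without replicate 1 (-3.69 without replicate 2), and Ta.21419.1.S1_at there from 1.15 to -0.44 without MPV5 replicate 1 (2.74 without replicate 2). Over all 968 probe sets, the share detected was 99.9% for MPV5, 99.7% for Allo-AT5 S5, 98.8% for Allo-AT9 S5. For the 200 members, the share detected at a level of 4 was 100% in Allo-AT9 S4. Where a count moved, the cause was not tested.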
